A study of Mus musculus with 34 samples.

Results

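The Notch pathway and the gene program of ESAM+ CD4+ splenic dendritic cells were followed through 10 genes, Notch1, Notch2, Dll4, Jag1, Rbpj, Hes1, Dtx1, Esam, Cd4 and Cr2, out of 22180 genes measured. The 10 were chosen by name, with earlier results of these data known: Jag1, Esam, Cd4 and Cr2 had already been seen lower in CD8- dendritic cells of Mst1/2-KO mice, whereas the other 6 had not been named. Each gene was read from the probe set annotated to that symbol alone, and all 10 were measured. Rbpj and Dtx1 had a further probe set each, and the one with the higher mean over all arrays was used, with no filter on low values. One more probe set, shared by Dll4 and Gm14207, was left out.

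Notch receptors sit in the cell membrane and are cut when a Delta-like or Jagged ligand on a neighbouring cell binds them. The freed part enters the nucleus, joins the DNA-binding protein RBPJ and the Mastermind coactivators, and switches on targets such as Hes1 and Dtx1. In the mouse spleen, Notch2 signalling in dendritic cells (DCs), driven by Delta-like ligand in the marginal zone, is known to be needed for the CD8- DCs that carry the adhesion molecule ESAM and the coreceptor CD4 on their surface. Cr2, the gene of complement receptor 2 (CD21), is best known from marginal zone and follicular B cells and from follicular DCs.

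RNA of DCs freshly sorted from the spleens of C57BL/6 mice was measured on 34 arrays. In a sorted-subset experiment, CD8+ DCs and CD8- DCs of wild-type (WT) mice and of mice labelled Mst1/2-/- (here Mst1/2-KO) gave 4 arrays in each of 4 groups. Mst1 and Mst2 are the mammalian Hippo kinases. Total DCs of both genotypes gave 4 WT and 3 Mst1/2-KO arrays in a second experiment. The remaining 11 arrays hold total DCs, all but 1 of them treated with anti-CD40, an antibody that triggers a costimulatory receptor of DCs. Experiment 1 compared 4 arrays of Rag1-/- mice, which lack mature B and T cells, with 3 arrays of Rag1-/-/p38-/- mice, p38 being a kinase of the stress response. Experiment 2 held 2 Rag1-/- arrays and 1 WT array after anti-CD40 and 1 array of non-stimulated Rag1-/- DCs. The labels give no ages, no promoter or Cre line, no dose or time of anti-CD40, and leave unsaid if replicates are different animals. Each p-value therefore measures the spread between these arrays, which may be technical. In sorted bulk RNA, fewer cells of a type and less RNA per cell cannot be told apart.

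Values are log2 signal, so a difference of 1 is a doubling, and they can be compared within an experiment and within a gene only. Levels are given as means ± SD over arrays and differences as log2 differences ± SE from a limma fit over all 22180 genes. Genes were called at an adjusted p (Benjamini-Hochberg) under 0.05. Array medians over all probe sets were 4.11 to 4.2, and arrays carry no read depth, so their number limits the precision. The signal of Stk4, the gene of Mst1, was 1.7-fold lower in Mst1/2-KO CD8- DCs, 1.81-fold lower in CD8+ DCs and 2.13-fold lower in total DCs (adjusted p = 0.000211, 0.000166 and 0.00154, limma). The mean of 6 DC markers lay between 10 and 10.39 on all 34 arrays. One library stood apart. WT total replicate 1 had a T cell marker mean of 5.69 against 4.44 to 4.73 on the other 3 WT total arrays. In total DCs, Cd4, Jag1, Esam and Cr2 are given with and without it, and the other genes only with it.

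Promoter windows from RefSeq (build GRCm38.p6, 250 bases before to 50 after the start site) were found for 7 of the 10 genes, which had 8 windows in all. The 3 without an entry were Hes1, Esam and Cd4. The windows below belong to Jag1 and Dtx1, a ligand and a target whose signal differed most between genotypes among the Notch genes, and to Rbpj and Cr2, which hold the letters of the RBPJ motif. Capitals mark the motif, GTGGGAA with its core TGGGAA, read on both strands (on the other strand the core reads TTCCCA).
Jag1, chr2:137116471-137116770, minus strand: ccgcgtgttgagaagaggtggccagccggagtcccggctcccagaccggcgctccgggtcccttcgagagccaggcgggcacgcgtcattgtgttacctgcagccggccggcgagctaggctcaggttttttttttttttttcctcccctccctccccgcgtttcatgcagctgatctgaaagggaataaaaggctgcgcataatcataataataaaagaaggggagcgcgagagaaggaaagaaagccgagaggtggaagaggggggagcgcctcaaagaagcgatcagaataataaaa
Dtx1, chr5:120711620-120711919, minus strand: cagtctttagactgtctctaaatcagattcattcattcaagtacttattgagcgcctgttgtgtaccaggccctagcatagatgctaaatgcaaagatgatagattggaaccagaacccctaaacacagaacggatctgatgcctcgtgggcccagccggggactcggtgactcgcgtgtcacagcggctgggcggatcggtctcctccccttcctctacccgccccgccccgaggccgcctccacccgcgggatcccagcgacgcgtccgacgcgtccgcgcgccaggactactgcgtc
Rbpj, chr5:53590096-53590395, plus strand: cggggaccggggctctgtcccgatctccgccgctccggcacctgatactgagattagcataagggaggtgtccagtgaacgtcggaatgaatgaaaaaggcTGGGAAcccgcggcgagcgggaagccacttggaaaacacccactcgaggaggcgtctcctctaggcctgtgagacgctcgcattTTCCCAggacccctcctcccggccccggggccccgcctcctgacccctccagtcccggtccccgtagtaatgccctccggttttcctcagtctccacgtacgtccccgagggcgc
Cr2, chr1:195176670-195176969, minus strand: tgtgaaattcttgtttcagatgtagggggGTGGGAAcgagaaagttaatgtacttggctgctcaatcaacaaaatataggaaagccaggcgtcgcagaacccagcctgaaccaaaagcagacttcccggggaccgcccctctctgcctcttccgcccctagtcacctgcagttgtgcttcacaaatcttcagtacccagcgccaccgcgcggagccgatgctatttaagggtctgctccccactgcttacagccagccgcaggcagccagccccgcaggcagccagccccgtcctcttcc
The core stood in 25.6% and the 7-letter motif in 6.38% of the 32851 RefSeq windows of this length, overlapping hits of core and motif included. Of the 10 genes, Rbpj held the core at positions -149 and -65 from its start site, and Cr2 held the 7-letter motif at -221. A match of letters is a description and not a shown binding site. In the Jag1 and Dtx1 windows the letters did not occur, which says nothing about binding elsewhere.

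The genotype comparison in CD8- DCs asks what the loss of Mst1 and Mst2 does to the subset in which the ESAM+ CD4+ cells lie. Esam, Cd4, Jag1 and Cr2 were lower in Mst1/2-KO CD8- DCs, with differences of -1.55 to -2.03, and no array of one genotype reached the range of the other. Since these 4 genes were known from this comparison, their values are a description with no test. Of the other 6 genes, the Notch targets Hes1 and Dtx1 fell, the receptor gene Notch1 rose slightly, and Notch2, Dll4 and Rbpj were not called. All told, 1 of the 10 genes was called higher and 6 lower, beside 3.9% of all genes called higher and 2.79% called lower. Nothing is read from that count, since the choice of genes used this comparison. The median difference of the 10 was -1.02 and that of all genes 0.

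**Figure D1:**
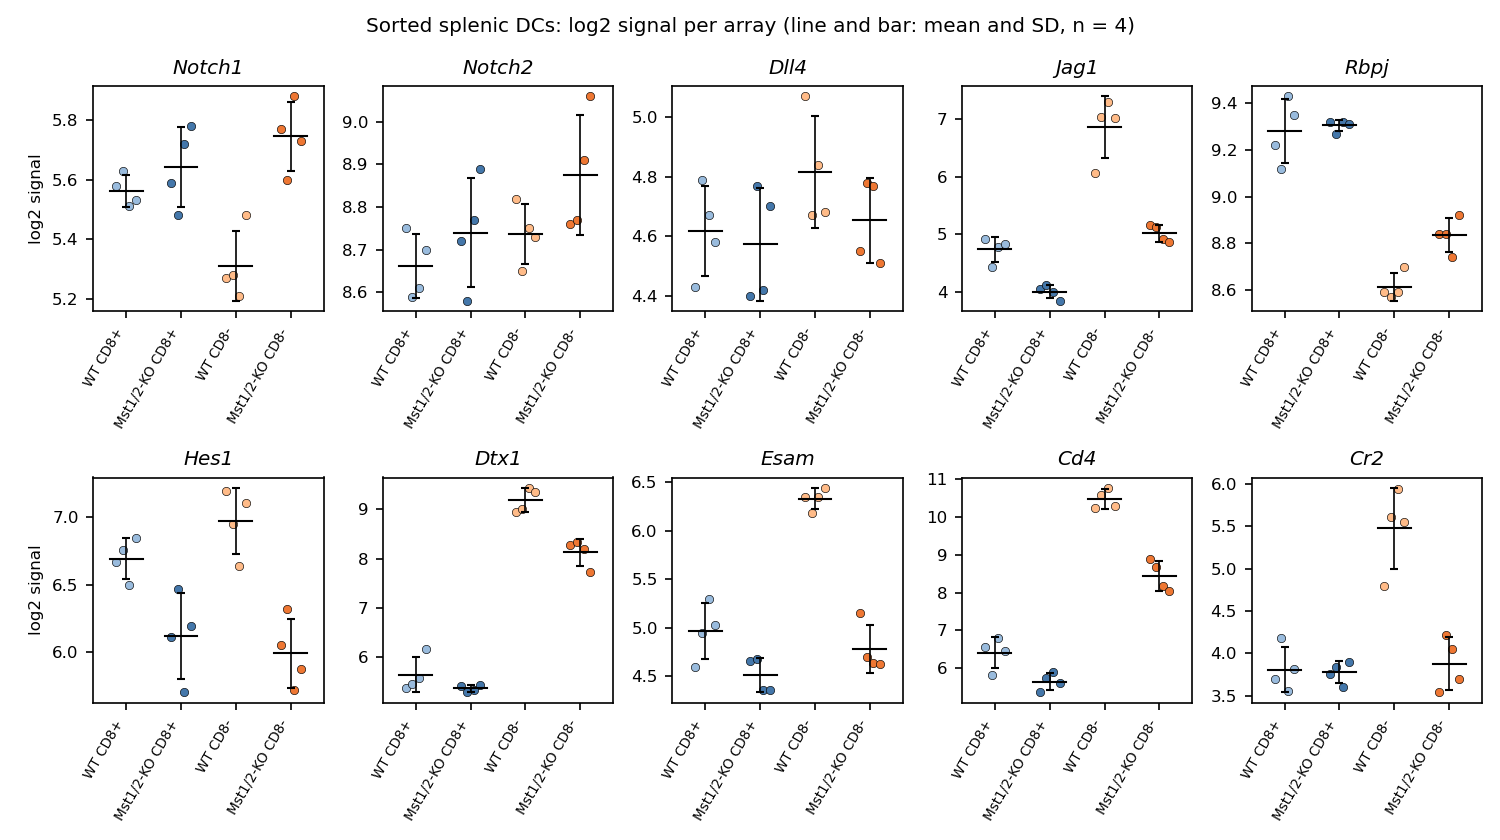
Log2 signal (y axis, a scale of its own for each gene) of the 10 genes on every array of the sorted-subset experiment, by genotype and subset, with the group mean and SD (n = 4). Jag1, Esam, Cd4 and Cr2 have their highest values in WT CD8- DCs (Esam 6.18 to 6.44), and Esam in Mst1/2-KO CD8- DCs (4.63 to 5.15) lies within reach of both CD8+ groups.

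Esam encodes an adhesion molecule that marks the Notch2-dependent DCs of the spleen. Its log2 signal was 6.34, 6.18, 6.34 and 6.44 on the 4 WT CD8- arrays and 5.15, 4.7, 4.64 and 4.63 on the Mst1/2-KO CD8- arrays. Replicate 1 was the highest of the Mst1/2-KO arrays and still below the lowest WT array. The means were 6.33 ± 0.11 and 4.78 ± 0.25, a 2.92-fold difference (-1.55 ± 0.14). The Mst1/2-KO CD8- arrays overlapped with both CD8+ groups, which had means of 4.97 ± 0.29 (WT) and 4.52 ± 0.18 (Mst1/2-KO). In order of level, WT CD8- DCs stood alone at the top and the 3 other groups followed with overlapping ranges.

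Cd4, the coreceptor carried by the ESAM+ DCs, read 10.23, 10.6, 10.78 and 10.3 on the WT CD8- arrays. On the Mst1/2-KO CD8- arrays it read 8.88, 8.67, 8.19 and 8.04. All 4 Mst1/2-KO arrays were lower than every WT array, and the mean difference was 4.1-fold (-2.03 ± 0.21). Both CD8+ groups lay lower still, at 6.41 ± 0.41 in WT and 5.65 ± 0.23 in Mst1/2-KO, with overlapping ranges. Unlike Esam, Cd4 in Mst1/2-KO CD8- DCs stayed above all CD8+ arrays, and its mean was 2.8 ± 0.21 above that of Mst1/2-KO CD8+ DCs.

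Jag1 encodes a ligand of the Jagged class. It read 6.07, 7.04, 7.29 and 7.02 on the WT CD8- arrays, replicate 1 being the lowest, and 5.16, 5.13, 4.92 and 4.87 on the Mst1/2-KO CD8- arrays. The groups did not overlap, with a 3.57-fold difference of the means (-1.84 ± 0.19). The order of levels was WT CD8-, Mst1/2-KO CD8-, WT CD8+ (4.74 ± 0.22) and Mst1/2-KO CD8+ (4.01 ± 0.12). The Mst1/2-KO CD8- range began at 4.87 and the WT CD8+ range ended at 4.92, so this middle pair overlapped by a narrow margin, while no other neighbours did.

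Cr2 read 4.8, 5.61, 5.94 and 5.55 on the WT CD8- arrays and 3.54, 4.22, 4.05 and 3.7 on the Mst1/2-KO CD8- arrays. Replicate 1 was the lowest of the WT arrays and still above all Mst1/2-KO arrays, and the means differed 3.02-fold (-1.6 ± 0.2). The Mst1/2-KO CD8- level of 3.88 ± 0.31 overlapped with both CD8+ groups, at 3.8 ± 0.27 in WT and 3.78 ± 0.13 in Mst1/2-KO. The means of these 3 groups lie below the median probe set of the arrays, where signal is hard to tell from background.

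Hes1, a transcriptional repressor and a direct Notch target, read 7.2, 6.95, 6.64 and 7.11 in WT CD8- DCs and 6.05, 6.32, 5.72 and 5.87 in Mst1/2-KO CD8- DCs. The lowest WT array was above the highest Mst1/2-KO array, and Hes1 fell 1.97-fold (-0.98 ± 0.16, adjusted p = 0.00102, limma). Dtx1, which encodes the ubiquitin ligase Deltex1 and is itself a Notch target, read 8.95, 9.01, 9.44 and 9.35 in WT CD8- DCs. In Mst1/2-KO CD8- DCs it read 8.27, 8.33, 8.2 and 7.73, all below the WT arrays, and it fell 2.07-fold (-1.05 ± 0.16, adjusted p = 0.000723, limma). The second Dtx1 probe set, which had the lower mean over all arrays, gave -1.09 ± 0.22 (adjusted p = 0.00538, limma).

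Notch1 moved the other way by a small amount. It read 5.27, 5.28, 5.21 and 5.48 in WT CD8- DCs and 5.77, 5.6, 5.88 and 5.73 in Mst1/2-KO CD8- DCs, without overlap, and rose 1.35-fold (0.43 ± 0.08, adjusted p = 0.00417, limma). Notch2, the receptor known to be required by ESAM+ DCs, had means of 8.74 ± 0.07 in WT and 8.88 ± 0.14 in Mst1/2-KO CD8- DCs, with overlapping arrays (0.14 ± 0.08, 95% interval -0.04 to 0.32, adjusted p = 0.432, limma). The ligand gene Dll4 read 4.65 ± 0.14 in Mst1/2-KO against 4.81 ± 0.19 in WT (-0.16 ± 0.11, 95% interval -0.41 to 0.08, adjusted p = 0.526, limma). Rbpj, the DNA-binding partner of all Notch receptors, read 8.84 ± 0.07 against 8.61 ± 0.06. Its groups did not overlap, but its difference of 0.22 ± 0.07 was not called (adjusted p = 0.0887, limma), while the variance model with trend and robust settings called it (adjusted p = 0.0479). The 95% intervals of Notch2, Dll4 and Rbpj lie within -0.41 and 0.38.

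In CD8+ DCs none of the 10 genes was called, beside 0.234% of all genes called higher and 0.654% lower. At an unadjusted p under 0.05, 4 of the 10 genes passed, as did 2345 genes in all (10.6%). The 4 were Jag1 (-0.74 ± 0.19, adjusted p = 0.0847, limma), Cd4 (-0.76 ± 0.21, 0.109), Hes1 (-0.58 ± 0.16, 0.113) and Esam (-0.45 ± 0.14, 0.182), all with a lower Mst1/2-KO mean. Jag1 read 4.92, 4.43, 4.78 and 4.84 in WT and 4.06, 4.12, 4.01 and 3.85 in Mst1/2-KO CD8+ DCs, so its groups did not overlap. Hes1 read 6.67, 6.76, 6.5 and 6.85 in WT and 6.11, 6.47, 5.7 and 6.19 in Mst1/2-KO, also without overlap. A fit on the 8 CD8+ arrays alone called Jag1 (adjusted p = 0.0165), and a fit without WT CD8+ replicate 2, the lowest WT array for Cd4, called Cd4 (-0.96, adjusted p = 0.0279). For Cr2 (-0.03 ± 0.2, 95% interval -0.45 to 0.39) and Dtx1 (-0.27 ± 0.16, adjusted p = 0.618) the arrays overlapped. Notch1, Notch2, Dll4 and Rbpj differed by -0.05 to 0.08.

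The difference between the 2 genotype effects was computed as the effect in CD8- DCs minus that in CD8+ DCs. It was -1.57 ± 0.28 for Cr2, -1.27 ± 0.29 for Cd4, -1.1 ± 0.27 for Jag1 and -1.09 ± 0.2 for Esam, given as a description since the CD8- effect chose them. Cr2 in both CD8+ groups (3.8 and 3.78) and Jag1 in Mst1/2-KO CD8+ DCs (4.01) lay under the array medians. Signal is hard to tell from background there, so no order is read from these sizes. Over all genes 0.338% were called with a higher and 0.221% with a lower effect in CD8- DCs, and 2 of the 10, Esam and Cr2, lay past that threshold. Nothing is read from which of the 4 chosen genes do so. Among the 6 others none was called: Dtx1 had -0.78 ± 0.23 (adjusted p = 0.172, limma), Hes1 -0.4 ± 0.22 (0.632) and Notch1 0.35 ± 0.12 (0.275). Notch2, Dll4 and Rbpj had -0.12 to 0.2. Without WT CD8+ replicate 4, which had the highest Dtx1 signal of its group (6.16), Dtx1 had -0.95 and an adjusted p of 0.0436. A fall of Hes1 or Dtx1 restricted to CD8- DCs was thus not shown by this fit.

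**Figure D2:**
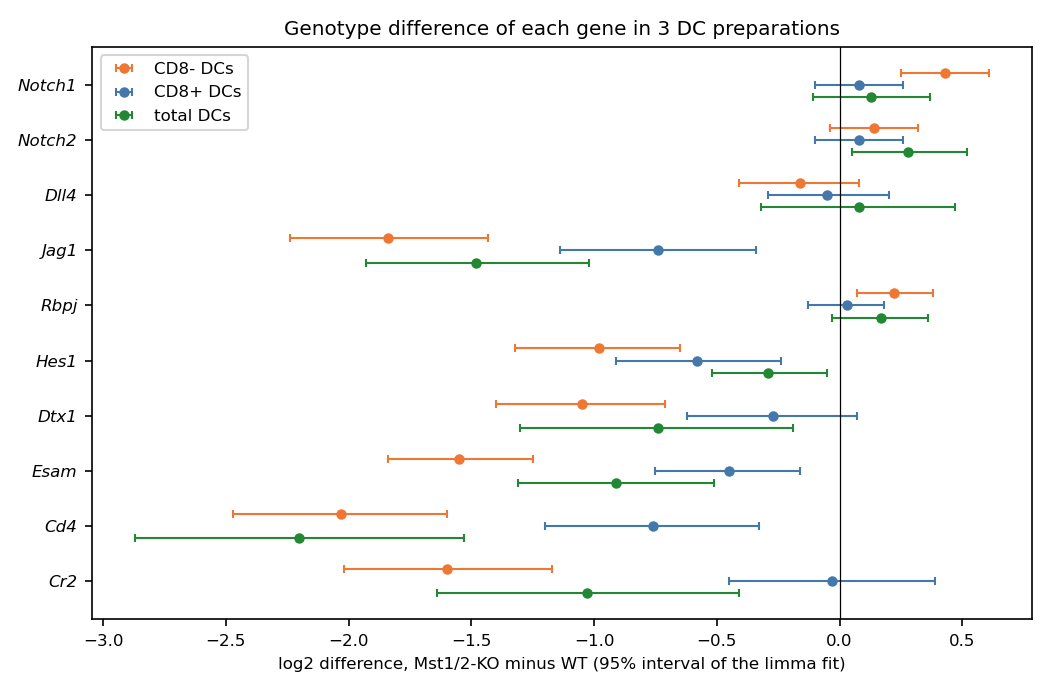
Log2 difference of Mst1/2-KO minus WT (x axis) for each gene in sorted CD8- DCs, sorted CD8+ DCs and total DCs, with 95% intervals of the limma fits. Cd4 lies at -2.03 in CD8- DCs and -2.2 in total DCs, and the receptor genes Notch1 and Notch2 lie between 0.08 and 0.43 in all 3 preparations.

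Total DCs come from other arrays than those by which Jag1, Esam, Cd4 and Cr2 were chosen, so all 10 genes could be tested there. Cd4 and Jag1 fell, 2 of the 10 genes called lower and none higher, beside 0.532% of all genes lower and 0.316% higher. Cd4 read 8.64, 8.76, 8.87 and 9.14 on the WT arrays and 6.93, 5.76 and 7.25 on the Mst1/2-KO arrays, where replicate 2 was the lowest. The groups did not overlap, and Cd4 fell 4.6-fold (-2.2 ± 0.3, adjusted p = 0.0123, limma). Jag1 read 5.82, 5.94, 5.53 and 6.5 in WT and 4.45, 4.29 and 4.68 in Mst1/2-KO, a fall of 2.78-fold without overlap (-1.48 ± 0.2, adjusted p = 0.013, limma). Jag1 was no longer called without Mst1/2-KO total replicate 1 (-1.46, adjusted p = 0.0711) or replicate 2 (-1.39, adjusted p = 0.0822).

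Esam in total DCs read 5.24, 5.83, 5.53 and 6.06 in WT and 4.87, 4.6 and 4.79 in Mst1/2-KO. The groups did not overlap, but the difference narrowly missed the threshold (-0.91 ± 0.18, adjusted p = 0.0529, limma). Of 7 other settings, 5 called it (quantile or cyclic loess normalization, genes above the median gene only, the variance model with trend and robust settings, and all arrays in one fit), with adjusted p from 0.00353 to 0.124 over the 7. Cr2 read 4.95, 4.42, 4.11 and 5.44 in WT and 3.56, 3.59 and 3.96 in Mst1/2-KO, again without overlap and not called (-1.03 ± 0.27, adjusted p = 0.135, limma). Its WT arrays spread over more than 1 log2 unit. All its Mst1/2-KO arrays lay under the array medians of 4.11 to 4.2, where signal is hard to tell from background. Without WT total replicate 1, the array with the T cell marker signal, the difference was -2.27 for Cd4 (adjusted p = 0.0276), -1.52 for Jag1 (0.0294), -1.05 for Esam (0.0258) and -0.95 for Cr2 (0.232), so that Esam was then called. On that array Cd4 itself was the lowest of the WT values.

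Of the remaining genes in total DCs, Hes1 read 6.3 ± 0.09 in Mst1/2-KO (n = 3) against 6.58 ± 0.14 in WT (n = 4), without overlap (-0.29 ± 0.11, adjusted p = 0.275, limma). Dtx1 read 6.74 ± 0.55 against 7.48 ± 0.31, with overlapping arrays (-0.74 ± 0.25, adjusted p = 0.22, limma). Notch2 (0.28 ± 0.1, adjusted p = 0.276) and Rbpj (0.17 ± 0.09, 0.46) had slightly higher Mst1/2-KO means on arrays that did not overlap. Notch1 and Dll4 differed by 0.13 and 0.08 and overlapped. The median difference over the 10 genes was -0.51, and over all genes 0.

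The comparison of CD8- with CD8+ DCs within a genotype asks in which subset the 10 genes have their signal. In WT DCs, Cd4 was 16.8-fold higher in the CD8- subset, Jag1 4.32-fold, Cr2 3.18-fold and Esam 2.56-fold, in each case without overlap. The WT CD8+ level of Cr2 (3.8 ± 0.27) lies under the array medians, so its fold is measured against a level that is hard to tell from background. These 4 values share the WT CD8- arrays with the comparison that chose the genes and carry no test. Dtx1 was 11.7-fold higher in WT CD8- than in WT CD8+ DCs (3.54 ± 0.16, adjusted p = 2.69e-11, limma), with 8.95 to 9.44 against 5.37 to 6.16. Its second probe set gave 2.67 ± 0.22 (adjusted p = 5.72e-08). Rbpj was 1.59-fold lower in the CD8- subset (-0.67 ± 0.07, adjusted p = 2.08e-06, limma), at 8.57 to 8.7 against 9.12 to 9.43. The second Rbpj probe set, which had a mean of 4.64 over all arrays against 9.04 for the one used, gave -0.23 ± 0.14 (adjusted p = 0.318).

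Notch1 was barely lower in WT CD8- DCs (-0.25 ± 0.08, adjusted p = 0.0438, limma), and this call was lost when any one of 7 of the 8 arrays was left out (adjusted p up to 0.127). Of the fits with one array left out, it held only in that without WT CD8- replicate 4. Of 7 other settings 5 kept the call. Trend and robust settings and a fit of the 2 groups alone lost it. Hes1 differed by 0.28 ± 0.16 (adjusted p = 0.268, limma), and was called with the replicate number as a block, which pairs the 2 subsets (adjusted p = 0.0381). Notch2 (0.07 ± 0.08) and Dll4 (0.2 ± 0.11) overlapped between subsets. In all, 5 of the 10 were called higher and 2 lower in WT CD8- DCs, where 10% of all genes were higher and 11% lower, and nothing is read from a count that includes the 4 chosen genes.

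In Mst1/2-KO DCs, 3 of the 10 genes were called higher in the CD8- subset and 1 lower, beside 9.3% and 9.93% of all genes. Dtx1 was still 6.79-fold higher in the CD8- subset (2.76 ± 0.16, adjusted p = 7.58e-10, limma) and Rbpj 1.38-fold lower (-0.47 ± 0.07, adjusted p = 0.00012, limma). Cd4 was 6.95-fold and Jag1 2.02-fold higher. Esam (0.26 ± 0.14) and Cr2 (0.1 ± 0.2) had overlapping arrays in the 2 Mst1/2-KO subsets. Notch1, Notch2, Dll4 and Hes1 overlapped too, with differences of -0.12 to 0.13. The 4 chosen genes share the Mst1/2-KO CD8- arrays with the comparison by which they were known. Their values are a description with no test, and nothing is read from the count that includes them.

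The wider Notch pathway was read from fixed lists of ligands, receptors, processing enzymes, nuclear partners, inhibitors and targets, which include the 10 genes where they belong. In the genotype comparison of CD8- DCs, 3.9% of all genes were called higher and 2.79% lower. Of 5 ligands, Jag1 was the one called, and Jag2, Dll1 and Dll3 were not. Of 4 receptors Notch1 alone was called. Of 17 processing genes 1 rose: Aph1a, a subunit of the gamma-secretase that frees the intracellular part of Notch (0.46 ± 0.11, adjusted p = 0.0139, limma). Of 11 inhibitors, Dtx1, which is also listed as a target, and Itch, a ubiquitin ligase that acts on Notch, fell (Itch -0.32 ± 0.09, adjusted p = 0.0365, limma). Of 12 target genes 2 fell, Hes1 and Dtx1, and the median of the 12 was -0.05. Of 13 nuclear partners 1 rose, the corepressor gene Tle1 (0.56 ± 0.15, adjusted p = 0.0338, limma). Its arrays overlapped, and it was named after its value was seen.

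**Figure D3:**
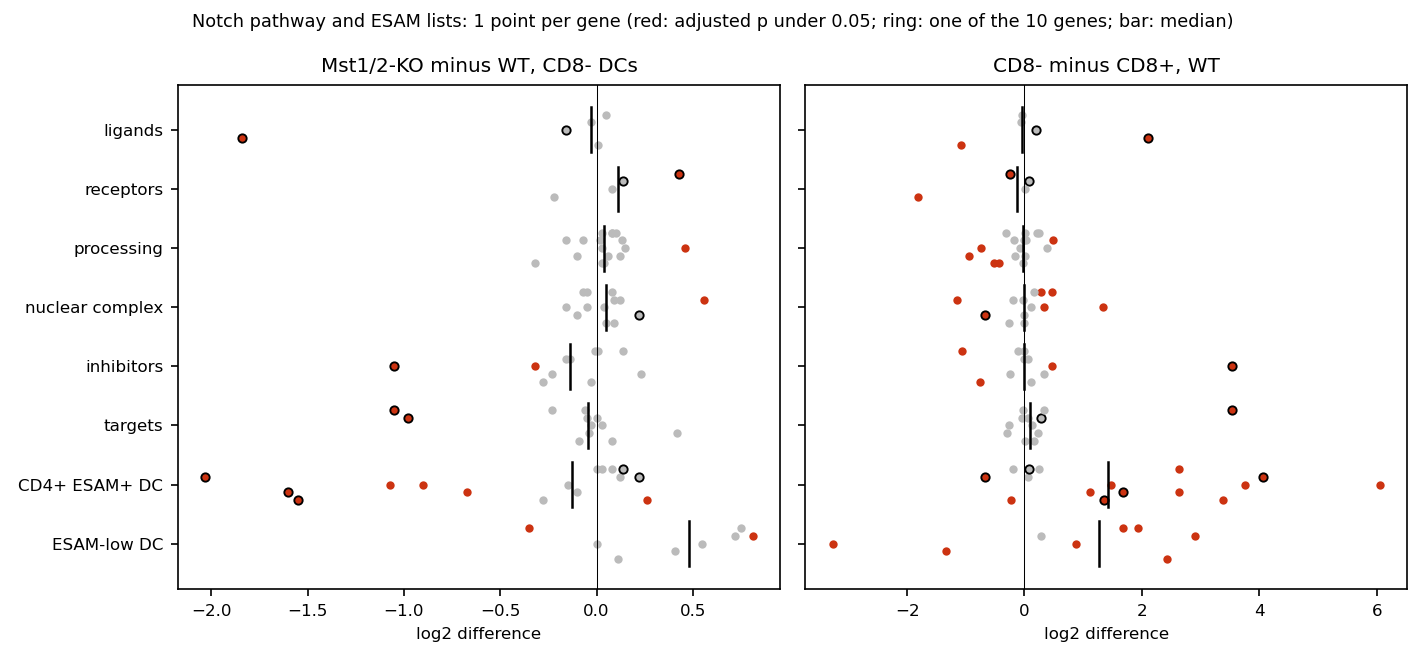
Log2 difference (x axis) of every gene of the 8 lists (rows), on the left Mst1/2-KO minus WT in CD8- DCs and on the right CD8- minus CD8+ in WT DCs. Red points passed the threshold, rings mark the 10 genes and bars the list median. On the left 2 of the 12 target genes lie far below 0, Hes1 at -0.98 and Dtx1 at -1.05.

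Of 16 genes that the CD4+ ESAM+ DCs need or carry, 6 were called lower and 1 higher in Mst1/2-KO CD8- DCs. Of all genes 2.79% were called lower and 3.9% higher, and the list median was -0.13. Besides Esam, Cd4 and Cr2 the lower ones were Clec4a4, the gene of the lectin DCIR2 (-1.07 ± 0.17, adjusted p = 0.00102, limma), Relb, an NF-kB subunit needed by these DCs (-0.9 ± 0.14, 0.000943), and Ltb, the gene of lymphotoxin beta (-0.67 ± 0.16, 0.0155). Ltbr, the gene of its receptor, rose by 0.26 ± 0.07 (adjusted p = 0.0208). Of 8 genes of the ESAM-low CD8- DCs, Cx3cr1, a chemokine receptor gene, rose (0.81 ± 0.16, adjusted p = 0.0048, limma), and Csf3r, the gene of the G-CSF receptor, fell (-0.35 ± 0.09, 0.0279), with a list median of 0.48. The list holding Esam, Cd4 and Cr2 was written with their values known, so nothing is read from its count.

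In CD8+ DCs the same 16 genes gave 2 called lower, Ltb (-1.33 ± 0.16, adjusted p = 0.000156, limma) and Relb (-0.86 ± 0.14, 0.00499), and none higher. Of all genes 0.654% were called lower there and 0.234% higher. The other list gene called there was Adam17, the gene of a protease that sheds membrane proteins including Notch (-0.39 ± 0.08, adjusted p = 0.0231). In total DCs Jag1 and Cd4 were the only genes of these 8 lists that were called. Relb and Ltb therefore had lower Mst1/2-KO means in both sorted subsets, with effects of -0.9 and -0.86 for Relb.

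Between the subsets of WT DCs, the CD8- cells had 1 ligand gene higher and 1 lower of 5, 2 of 4 receptor genes lower, and 1 processing gene higher and 4 lower of 17. Of 13 nuclear partners 4 were higher and 2 lower, of 11 inhibitors 2 and 2, and of 12 targets Dtx1 alone was higher. Beside the 10 genes, the CD8- subset had less Notch4 (-1.81 ± 0.18, adjusted p = 7.4e-07, limma), less of the ligand gene Jag2 (-1.09 ± 0.16, 5.75e-05) and less Poglut1, which glycosylates Notch (-0.94 ± 0.1, 9.63e-07). Among the Mastermind coactivators, Maml3 was higher (1.33 ± 0.16, adjusted p = 4.89e-06) and Maml2 lower (-1.15 ± 0.13, 1.85e-06). Of the inhibitors, Dtx4 (-1.07 ± 0.14, adjusted p = 1.29e-05) and Numb (-0.75 ± 0.09, 6.96e-06) were lower. The ESAM program list had 10 of 16 genes higher and 2 lower in WT CD8- DCs, beside 10% and 11% of all genes, and a list median of 1.41. The differences were 4.07 for Cd4, 6.05 ± 0.17 for Clec4a4, 3.76 ± 0.21 for the transcription factor gene Irf4 and 3.38 ± 0.09 for Sirpa, a receptor gene of CD8- DCs. The list of ESAM-low CD8- DC genes had 5 of 8 higher and 2 lower, with a median of 1.27. Both lists were made of genes tied to CD8- DCs, and the ESAM program list holds the chosen Esam, Cd4 and Cr2. Nothing is therefore read from their counts between subsets.

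Markers of other cells were read beside these genes, because Cd4 is also a T cell gene, Cr2 a B cell and follicular DC gene, and Esam an endothelial and platelet gene. In the genotype comparison of CD8- DCs, 3 of 11 B cell markers were lower (Ms4a1, Blk and Cd22), and the list mean was 5.88 to 6.09 in WT and 5.74 to 5.83 in Mst1/2-KO. The median difference of the 11 was -0.01. Among the markers not called, Pax5, Cd79a and Ebf1 had WT CD8- means of 4.06, 4.13 and 3.18. Their Mst1/2-KO CD8- means were 4.03, 4.1 and 3.17, and all lay at or under the median probe set. These genes do not stand for the list, whose mean of 5.99 in WT and 5.78 in Mst1/2-KO lay above the median probe set. Of 9 T cell markers 1 was lower, Cd5, and the list mean was 5.01 to 5.7 in WT against 5.05 to 5.36 in Mst1/2-KO. Of 11 endothelial markers 2 were higher, with a list mean of 4.52 to 4.64 in WT and 4.72 to 4.8 in Mst1/2-KO and a list median difference of 0.04. None of 7 platelet or 7 follicular DC and stroma markers was called. The part of all these cells in the differences of Cd4, Cr2 and Esam was not tested.

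Markers of other DC classes also differed by genotype in the CD8- sort. Of 9 plasmacytoid DC markers 4 were higher, with a list mean of 6.99 to 7.49 in WT and 7.83 to 8.22 in Mst1/2-KO. Of 11 CD8+ DC markers 6 were higher and 1 lower, with 7.23 to 7.76 in WT and 7.6 to 8.1 in Mst1/2-KO. Of 10 macrophage markers 1 was lower, Adgre1 (mean 10.31 in WT and 9.26 in Mst1/2-KO), and the list mean was 6.99 to 7.64 in WT against 6.83 to 7.03 in Mst1/2-KO. The part of these cells in the differences of Esam, Cd4, Jag1, Cr2, Hes1 and Dtx1 was not tested.

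**Figure D4:**
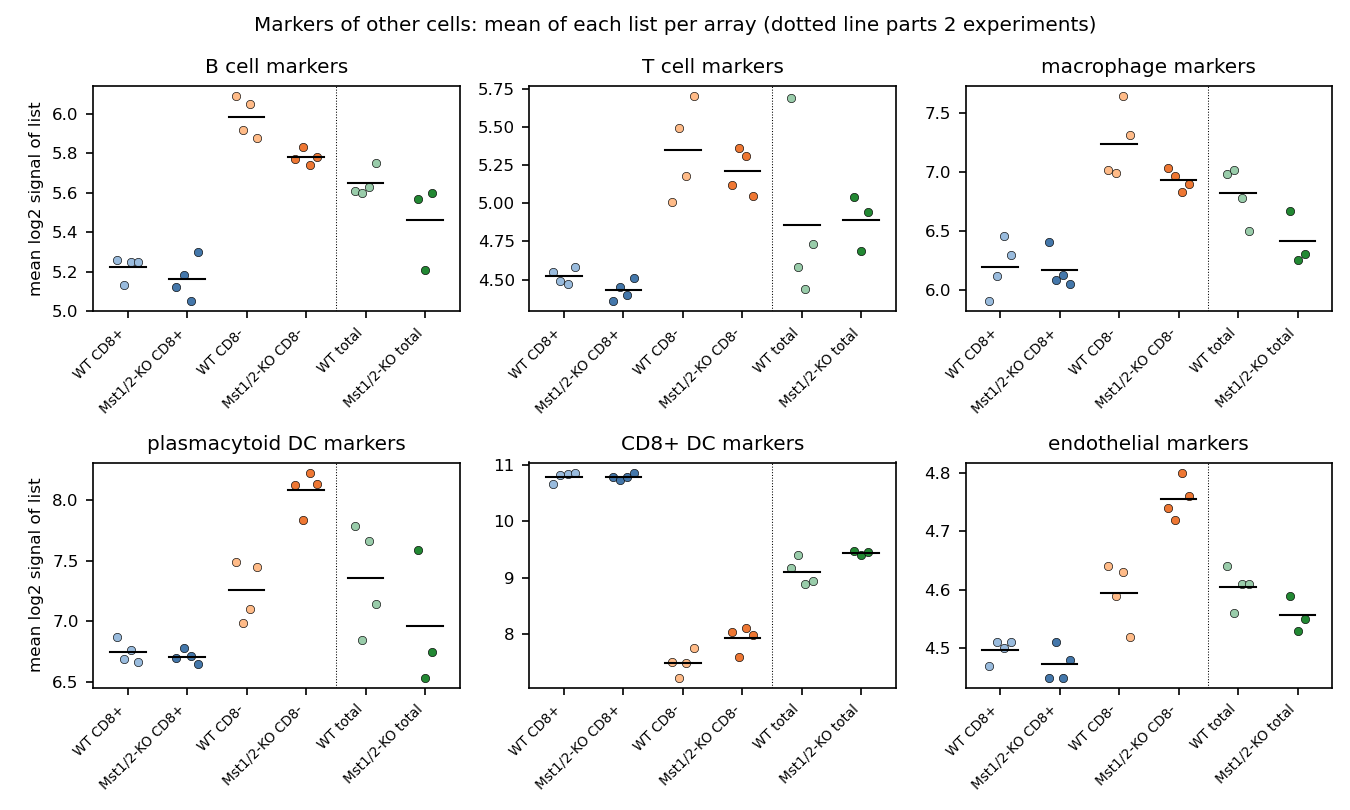
Mean log2 signal (y axis) of 6 marker lists on each array of the sorted-subset and total DC experiments, by group, with the group mean as a line. The plasmacytoid DC list is higher in Mst1/2-KO (7.83 to 8.22) than in WT CD8- DCs (6.99 to 7.49), and the T cell list of WT total replicate 1 lies at 5.69.

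In CD8+ DCs and in total DCs no gene of the B cell, T cell, plasmacytoid DC or CD8+ DC lists was called between genotypes. In total DCs the median difference of the 11 CD8+ DC markers was 0.29, and that of all genes was 0. Their list mean was 9.4 to 9.47 in Mst1/2-KO and 8.89 to 9.41 in WT total DCs, and their part in the lower Cd4 and Jag1 of total DCs was not tested. In total DCs the macrophage marker Adgre1 was lower in Mst1/2-KO (-1.47 ± 0.22, adjusted p = 0.0192, limma). Between subsets the T cell list was higher in CD8- DCs for 6 of 9 genes in WT, with list means of 5.01 to 5.7 against 4.47 to 4.58, so the higher Cd4 of the CD8- subset moved with T cell genes too. Its part in the Cd4 difference was not tested. Cd3e, a defining T cell gene, was 5.55 in WT CD8- DCs and 3.9 in WT CD8+ DCs, and 5.31 and 3.91 in Mst1/2-KO.

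The arrays treated with anti-CD40 hold none of the 10 genes as called. In experiment 1 the p38 comparison called 0% of genes higher and 0% lower by limma, while 1866 genes (8.41%) passed an unadjusted p under 0.05. Of the 10 genes 2 did so, both ligands. Jag1 read 5.27, 5.47, 6.6 and 5.14 in Rag1-/- and 4.19, 4.77 and 4.65 in Rag1-/-/p38-/- DCs, without overlap (-1.08 ± 0.36, adjusted p = 0.556, limma). Replicate 3 was high, and without it the difference was -0.76 (adjusted p = 0.572). That array also had the highest macrophage marker mean, 7.48, of a range of 6.4 to 7.48 in Rag1-/- and 6.05 to 6.51 in Rag1-/-/p38-/- DCs. None of the 10 macrophage markers was called (list median -0.68), and their part in the Jag1 values was not tested. Dll4 read 4.84, 4.7, 4.86 and 4.69 against 4.37, 4.6 and 4.6, also without overlap (-0.25 ± 0.08, adjusted p = 0.556). Jag1 was called when all 34 arrays shared one estimate of the spread (adjusted p = 0.0438). Cd4 read 7.72, 8.21, 7.2 and 6.82 in Rag1-/- DCs and 8.05, 8.11 and 8.1 in Rag1-/-/p38-/- DCs, overlapping and with a much smaller spread in the second group (0.59 ± 0.31, adjusted p = 0.61). The other 7 genes differed by -0.17 to 0.15.

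Experiment 2 has 1 non-stimulated and 1 WT array, each assumed by the fit to vary like the groups of both anti-CD40 experiments. Hes1 (-0.47 ± 0.36) and Notch2 (-0.25 ± 0.16) read lower on both stimulated Rag1-/- arrays than on the non-stimulated array. Dll4, Rbpj, Dtx1 and Cd4 read higher on both, and Notch1 and Cr2 overlapped. With 2 arrays against 1, the single array can often lie outside the others with no real difference. The share of all genes with such an order was not counted, so nothing is read from it. After anti-CD40, Jag1 read 5.16 and 5.64 on the Rag1-/- arrays against 4.55 on the non-stimulated array (0.85 ± 0.54, adjusted p = 0.562, limma). Esam read 4.77 and 5.05 against 4.09 (0.82 ± 0.3, adjusted p = 0.294). Both stimulated arrays were above the single non-stimulated one, but no gene of the 10 was called, and 1 of them and 2908 of all genes (13.1%) passed an unadjusted p under 0.05. Of all genes 0.0271% were called higher and 0.00902% lower.

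Set against the 2 Rag1-/- arrays after anti-CD40, the WT array read higher for Esam (5.79 against 4.77 and 5.05, 0.88 ± 0.3, adjusted p = 0.239, limma), Dtx1 (7.59 against 6.53 and 6.82, 0.91 ± 0.31, 0.248) and Cr2 (4.47 against 4.12 and 3.58, 0.62 ± 0.19, 0.199). Notch1 was lower on the WT array (5.29 against 5.93 and 5.64, -0.49 ± 0.12). Notch2 read higher there (8.98 against 8.56 and 8.64, 0.38 ± 0.16), as did Jag1 (0.31 ± 0.54). Cd4 read lower (-0.15 ± 0.44), and Dll4, Rbpj and Hes1 overlapped. Here too a single array is set against 2, so nothing is read from the order of the arrays. None passed the threshold, where 0.122% of all genes were called higher and 0.243% lower, and 5 of the 10 and 3113 of all genes (14%) passed an unadjusted p under 0.05. Leaving out Rag1-/- replicate 1 gave 0.89 for Cr2, where replicate 3 (3.58) lay under the array medians. Leaving out replicate 3 gave -0.64 for Notch1. Each of these differences sets 1 array against 1 array, so no call is read from it. The B cell list was higher on the WT array (5.7 against 5.15 and 5.16, 3 of 11 genes called), and its part in the Cr2 value was not tested. Of 9 T cell markers Cd3e alone was called higher on the WT array (5.26 against a mean of 4.06), while the T cell list mean was 4.86 there against 5 and 4.97.

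**Figure D5:**
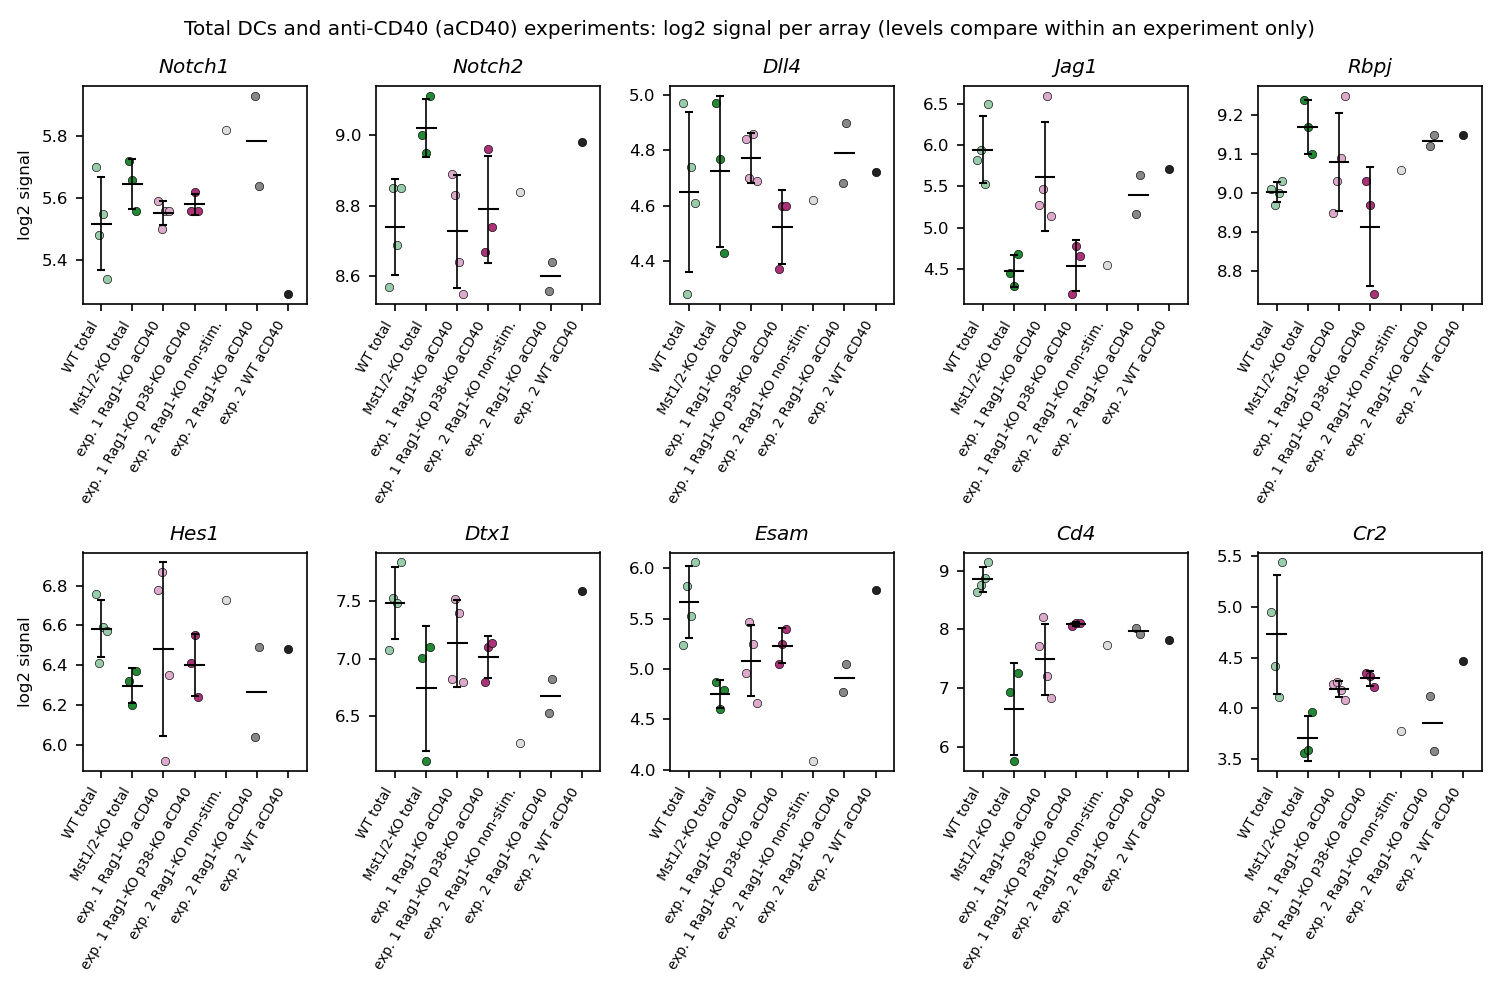
Log2 signal (y axis, a scale of its own for each gene) of the 10 genes on every array of the total DC experiment and of the anti-CD40 (aCD40) experiments 1 and 2, with the mean where a group has 2 or more arrays and the SD where it has 3 or more. In total DCs, Cd4 lies at 8.64 to 9.14 in WT and 5.76 to 7.25 in Mst1/2-KO, and levels are not to be compared across experiments.

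Genes whose pattern over the 16 sorted arrays lay closest to that of Esam, Cd4, Jag1, Cr2 and Dtx1 were found by the mean absolute difference of log2 signal after centring each gene, with no test. Closest to Esam were Rasal2 (0.217), Icos (0.221) and Hap1 (0.234), where the median gene lay at 0.631. Rasal2 had a mean of 7.56 in WT and 6.3 in Mst1/2-KO CD8- DCs, next to 6.11 and 5.87 in CD8+ DCs. Closest to Cd4 were Dscam (0.31), St8sia6 (0.366) and Dtx1 itself (0.451), with the median gene at 1.73. Closest to Dtx1 was Adgre1, a macrophage marker gene (0.178, median gene 1.59), followed by Cd300lf (0.213) and Siglece (0.221).

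For Jag1 the nearest genes were Blk (0.267), Hpgds (0.287) and Tmem150c (0.302), with the median gene at 0.878. Blk, a Src-family kinase gene of B cells, was 6.65 in WT CD8- and 5.13 in Mst1/2-KO CD8- DCs. For Cr2 they were Dzip1 (0.169), Dnajc22 (0.171) and Slc6a12 (0.204), with the median gene at 0.645. All these genes had their highest group mean in WT CD8- DCs, as did the genes they were matched to. This follows from how they were found and is no result of its own.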

How the data were processed

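Gene expression was measured on arrays. The deposited table holds log2 values that the authors normalized, and the submitters' processing notes name RMA and Partek 6.6. The values carry a constant per probe set and experiment, so every comparison stays within one experiment. Of 41155 probe sets, those with exactly 1 gene symbol were kept and each of 22180 genes was represented by its probe set with the highest mean over the 34 arrays.

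Group means were fitted with limma 3.58.1 (R 4.3.3, lmFit and eBayes) to the 16 sorted arrays, the 7 total DC arrays, the 7 arrays of experiment 1 (p38) and the 11 arrays of experiments 1 and 2 (for comparisons within experiment 2). P-values were adjusted by Benjamini-Hochberg over all genes. The fit was tested on simulated data. Replicate numbers pair the subsets of a genotype (correlation of deviations over 11090 genes 0.19 to 0.42 in WT and 0.16 to 0.28 in Mst1/2-KO) and the groups of experiment 1 (0.14 to 0.23), but not the genotypes.

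The 10 genes and all lists were chosen with earlier results of these data known. All 10 genes are given in each comparison, some of them only as a range or as overlapping. Of each Notch or ESAM list, up to 4 called genes without overlap were picked per comparison, by size of change, and only some of these are named. In the comparison of subsets within the KO genotype, none of these list genes is named beside the 10 genes. Between WT subsets several were left out, among them Ltb (2.64) and Cd36 (-3.27, CD8- minus CD8+). The named genes are therefore not a complete set. Alternatives were quantile and cyclic loess normalization, genes above the median gene, the mean of all probe sets of a gene, trend and robust settings, other arrays in the fit, the replicate number as a block, and each array left out. Marker lists covered B cells, T cells, plasmacytoid DCs, CD8+ DCs, macrophages, endothelium, platelets, follicular DCs with stroma, and DCs. Promoters come from RefSeq (GRCm38.p6). The build behind the array annotation is not given in the sources used here.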

Additional observations from a re-analysis of the deposited data

Results flagged for a closer look

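Of 60 gene and array groups of 4 arrays each, 1 held a value far from the other 3, where chance gives about 1 in 20. Esam in Mst1/2-KO CD8- replicate 1 was 5.15 against 4.63 to 4.7 on the other arrays.

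The genotype effect differed between the subsets for Esam, by -1.09, and for Cr2, by -1.57 (effect in CD8- minus effect in CD8+ DCs). Both passed the threshold of the fit across all genes. Both had been named for their CD8- effect, so the values are a description.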

How the results depend on the processing

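Of 90 results (10 genes in 9 comparisons), 22 were called, and 12 of these are Jag1, Esam, Cd4 or Cr2 in comparisons with the CD8- arrays by which they were chosen, from which no stability is read. Of the other 10, 8 were called under every alternative run, the exceptions being Notch1 between WT subsets and Jag1 in total DCs. No called difference changed sign. Of the 10 genes, 0 were called in CD8+ DCs, but 1 with the CD8+ arrays alone (Jag1), 1 with the replicate number as a block (Hes1, adjusted p = 0.0144), and 0 to 1 with one array left out. Those numbers pair the 2 subsets of a genotype but not the genotypes. The block gave 8 in place of 7 genes between WT subsets and changed no other count of the 10. The genotype effects differed for 2 genes, and for 2 to 4 with one array left out (4 without WT CD8- replicate 1), a description for the chosen genes. In total DCs 2 genes were called, 3 (Esam added) with quantile or cyclic loess normalization, with genes above the median only or with trend and robust settings, 4 with all arrays in one fit, and 1 to 3 with one array left out. After anti-CD40, the p38 comparison gave 0 genes, or 1 with all arrays in one fit. WT against Rag1-/- gave 0 in every setting that kept all its arrays. Over all genes the count in CD8- DCs was 1482 and fell to 940 without WT CD8- replicate 2 and 918 without Mst1/2-KO replicate 4. In CD8+ DCs it was 197, or 114 to 273. In total DCs it was 188 (70 higher), or 39 to 764, and 269 (68 higher) with cyclic loess. For the difference of effects it was 124, or 79 to 259. For the p38 comparison it was 0, or 209 with all arrays in one fit. With no array left out, it was 8, or 1 to 17, for anti-CD40 and 81, or 4 to 82, for WT against Rag1-/-. Fits of these 2 comparisons with an array left out set 1 array against 1 and are not counted. The cause of these changes was not tested. Cr2 lay below the median gene and had no value where only genes above it were kept. A fit of the 2 subset groups alone was not run for the difference of effects.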
